A study of Mus musculus with 6 samples.

Results

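This report follows 8 genes of epithelial cell contacts in mouse embryonic stem (ES) cells: the claudins Cldn3, Cldn4, Cldn6 and Cldn7, the tight junction proteins Ocln and Tjp1, and the adhesion molecules Cdh1 and Epcam. They were chosen by name with earlier results of these data known, so the shares of all genes beside their counts are description only. Every probe set that the platform annotation gives to one of them alone was used. Thus 8 of the 18193 genes measured were taken, with 13 of the 45037 probe sets tested. Cldn3 had 4 of them, Ocln and Epcam 2 each, and the other genes 1 each.

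The cells were clones A3, A1 and A4 of the ES line EBRTcH3, each carrying a 3xFLAG-tagged coding sequence of human WBSCR1 at the ROSA26 locus under a promoter that tetracycline represses. The mouse gene that corresponds to WBSCR1 is Eif4h, which codes for a factor that helps translation start. RNA of each clone was hybridized to 1 array after 24 h in medium without tetracycline (induced) and to 1 array with tetracycline kept in the medium (control, 0 h), so that 6 arrays gave 3 induced and 3 control samples. All 6 carry the transgene, each clone is 1 line, and the effects of the transgene and of tetracycline removal cannot be told apart. The arrays measure a bulk culture, in which fewer cells of a type and less RNA per cell cannot be told apart.

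Tight junctions seal the space between neighbouring epithelial cells. Claudins are the membrane proteins that form their strands and set which ions pass, occludin (Ocln) lies in the same strands, and Tjp1 (ZO-1) is the scaffold on the inner face that ties the strands to actin. Cdh1 (E-cadherin) holds cells together at adherens junctions, and Epcam is an adhesion molecule that binds claudins and is abundant in undifferentiated ES cells. ES cells grow as compact colonies held by E-cadherin, and claudins such as Cldn6 are expressed in early embryonic epithelia.

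Proteins of the Zeb and Snail families repress many epithelial genes through the hexamer CAGGTG (an E-box, CACCTG on the other strand), so the start sites of these genes were read for it. The windows came from RefSeq (mouse build GRCm38.p6), each covering 250 bases before and 50 bases after a start. At least 1 window held the hexamer on either strand in 6 of the 7 genes that had an entry, and 22.6% of the 27025 genes with an entry did so. Tjp1 had none, and Cdh1 had no entry. Up to 2 matches a gene are shown, those nearest upstream of a start where there is one, because they stand at the genes whose signals are compared across clones. Further matches, not shown, lie at Cldn4 (12 bases after the start), Cldn6 (41 after), Epcam (-187) and Ocln (8 after one start and -213 from another), and 1 of the Cldn7 windows held none. Each is written on the gene's own strand with the hexamer in capitals, and the position of its first base is counted from the start site.
Cldn3, 32 bases after the start, chr5:134986233-134986262, plus strand: caaagccacaggCAGGTGcaggggcagtct
Cldn4, position -14, chr5:134946931-134946960, minus strand: ctttaactgcagCACCTGtggccgcccttt
Cldn6, position -93, chr17:23679260-23679289, plus strand: gggaaacgcacgCAGGTGgctatcgccgca
Cldn7, position -97, chr11:69965312-69965341, plus strand: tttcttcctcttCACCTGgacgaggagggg
Cldn7, position -57, chr11:69965352-69965381, plus strand: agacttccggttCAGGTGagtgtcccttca
Ocln, position -68, chr13:100552549-100552578, minus strand: ctaggggctcggCAGGTGggtcccagcgca
Epcam, position -19, chr17:87635948-87635977, plus strand: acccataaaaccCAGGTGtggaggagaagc
A match describes the letters only. Binding was not measured here.

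The values are log2 signals of the robust multiarray average (RMA), on which a difference of 1 is a doubling. They carry no detection call, and levels are compared between arrays for the same probe set only. Array medians were 5.11 to 5.19 log2, which the Ocln probe sets stood close to, so whether Ocln was above background is not given. The brightest of the 6 Eif4h probe sets read 11.89, 12.53 and 12.38 log2 on the induced A3, A1 and A4 arrays, against 12.10, 12.25 and 12.23 log2 on their control arrays. The inserted sequence has no untranslated regions, and which Eif4h probe sets could detect it was not analysed here. A group of 63 probe sets, none of them a member, was picked because induced minus control was at least 1 log2 in A1 and at most -1 log2 in A4. By that choice it stood high on the induced A1 array (mean 7.89 log2) and the control A4 array (7.78), against 6.35 to 6.57 on the other arrays. Results between clones are therefore also given without the induced A1 and control A4 arrays. The 3′ minus 5′ signal of Actb, a sign of RNA quality, was 0.29 and 0.32 log2 on the A3 arrays and 0.40 to 0.45 on the A1 and A4 arrays. That of Gapdh was 0.08 and -0.01 log2 on the induced and control A3 arrays. On the A1 and A4 arrays it was 0.05 to 0.10 log2, a range that holds the induced A3 array. The part of RNA quality in the results was not tested.

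The claudins differed between clones and not detectably with induction. All 4 claudins were higher in A3 than in A1 and A4 in both conditions, and by 0.76 to 1.87 log2 over both together. Epcam and Ocln were higher in A3 by less, and the signals of Cdh1 and Tjp1 on the A3 arrays overlapped those of the other clones. Both A3 arrays lay above the other 4 arrays for 11 of the 13 probe sets, where 19.8% of all probe sets did so, and below them for none, where 16.6% did.

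**Figure D1:**
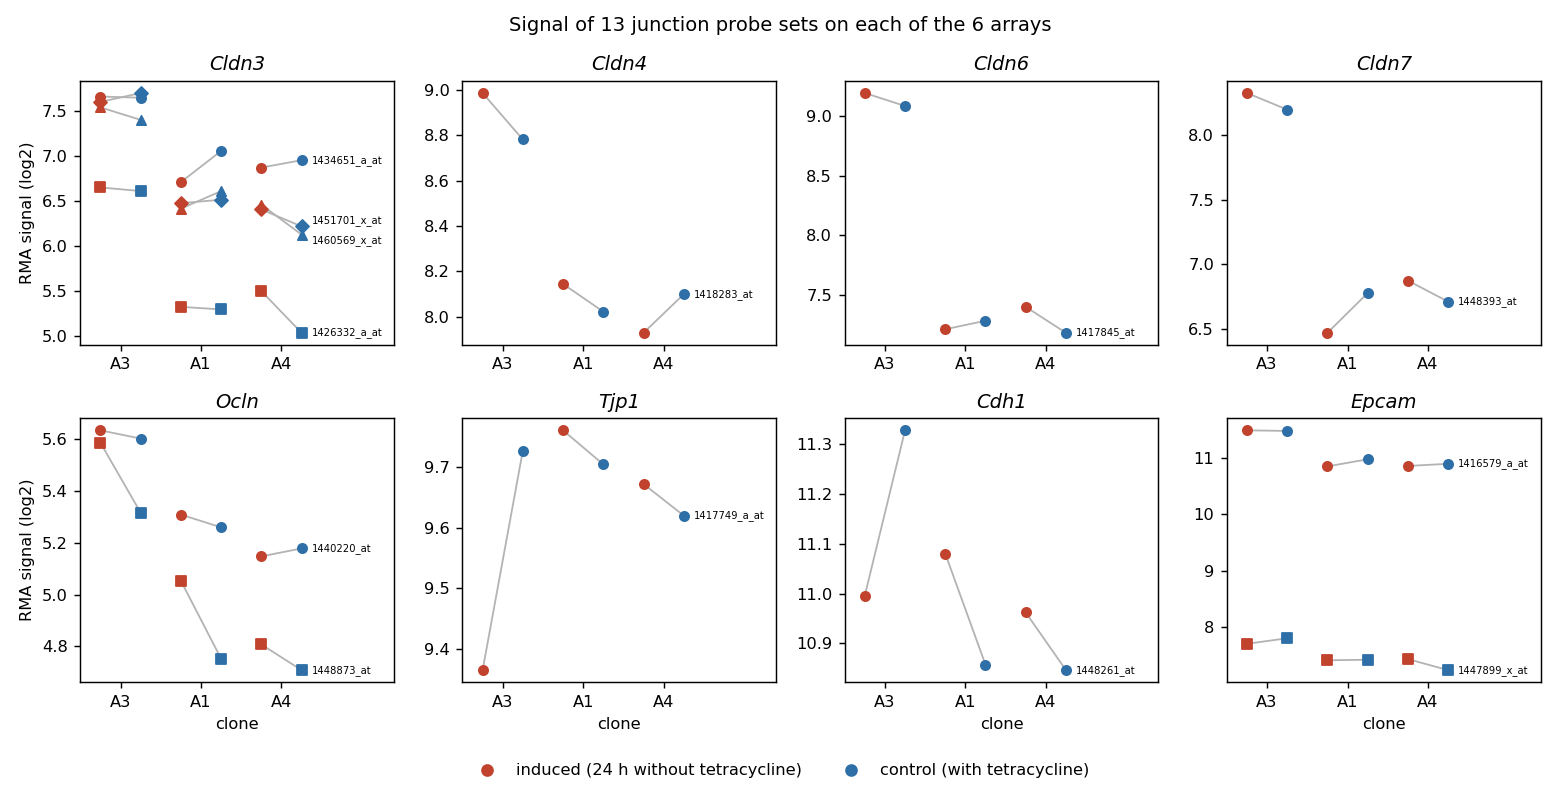
RMA signal (log2, vertical axis, a separate scale for each gene) of the 13 probe sets on each array, grouped by clone with induced (red) left of control (blue) and a line joining the 2 arrays of a clone. Shapes tell the probe sets of a gene apart, and both A3 points lie above the other points of the same probe set for the claudins, Ocln and Epcam, while for Tjp1 and Cdh1 they do not.

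Cldn6, a claudin of embryonic epithelia, stood furthest apart. Its probe set 1417845_at, on chromosome 17, read 9.19 log2 in induced and 9.09 in control A3 cells, against 7.21 and 7.28 in induced and control A1 cells and 7.40 and 7.18 in induced and control A4 cells. The 4 arrays of A1 and A4 lay within a narrow band that neither A3 array approached. A3 minus the mean of A1 and A4 was 1.87 ± 0.11 log2 (SE), a 3.66-fold higher signal (95% interval 3.09 to 4.34), with an adjusted p of 0.000164 in limma.

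Cldn7, which binds Epcam at the basolateral membrane of epithelial cells, came next. Probe set 1448393_at (chromosome 11) gave 8.32 log2 in induced and 8.20 in control A3 cells. The other clones read 6.47 (induced A1), 6.78 (control A1), 6.87 (induced A4) and 6.71 (control A4). The gap between A3 and the nearest other array was larger than the whole range of the other 4 arrays. The difference was 1.55 ± 0.13 log2, a 2.94-fold higher signal in A3 (2.40 to 3.59), with an adjusted p of 0.000680.

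Cldn3 and Cldn4 are small single-exon neighbours on chromosome 5, in the mouse counterpart of the Williams-Beuren region that also holds Eif4h, and both serve as receptors for the Clostridium perfringens enterotoxin. Cldn3, a claudin that tightens the seal, was read by 4 probe sets, and all 4 were higher in A3. The brightest, 1434651_a_at, read 7.66 log2 in induced and 7.64 in control A3 cells, 6.71 and 7.05 in induced and control A1 cells, and 6.87 and 6.95 in induced and control A4 cells. Its difference of 0.76 ± 0.11 log2 was the smallest of the 4, and 1426332_a_at gave the largest, 1.34 ± 0.12 log2, from 6.65 and 6.61 log2 in induced and control A3 cells against 5.03 to 5.49 log2 on the other arrays. Probe sets 1451701_x_at and 1460569_x_at, whose suffix marks probes that other transcripts may share, gave 1.25 and 1.07 log2. The signal in A3 was 1.69-fold higher on the first and 2.54-fold higher on the second, whose A1 and A4 values lay near the array medians and are not known to be above background. The adjusted p of the 4 probe sets ran between 0.000794 and 0.00625. Which of them reads Cldn3 most faithfully was not tested.

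Cldn4, a claudin of simple epithelia, read 8.99 log2 in induced and 8.78 in control A3 cells. The values were 8.15 and 8.02 in induced and control A1 cells and 7.93 and 8.10 in induced and control A4 cells (1418283_at). Its difference was 0.83 ± 0.11 log2, 1.78-fold (1.49 to 2.14), with an adjusted p of 0.00469. The intervals of Cldn4 and of the brightest Cldn3 probe set (0.57 to 1.10 and 0.50 to 1.02 log2) overlapped each other and lay below those of Cldn6 (1.63 to 2.12 log2) and Cldn7 (1.26 to 1.84 log2), while those of the other Cldn3 probe sets reached up to 1.63 log2. A difference between paralogues was not tested, because each is read by its own probes.

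Ocln, on chromosome 13, was the dimmest member. Probe set 1448873_at read 5.59 log2 in induced and 5.32 in control A3 cells, against 5.05, 4.75, 4.81 and 4.71 in induced A1, control A1, induced A4 and control A4 cells. The other, 1440220_at, read 5.64 and 5.60 in induced and control A3 cells, against 5.15 to 5.31 on the remaining arrays. Both separated A3 from the other clones, by 0.62 ± 0.10 and 0.40 ± 0.096 log2, with adjusted p of 0.00933 and 0.0420. The second call was lost in 11 of 16 alternatives, among them every fit that left out 1 array or 1 of clones A1 and A4, with adjusted p up to 0.237.

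Epcam, on chromosome 17, was bright in every clone. Its probe set 1416579_a_at read 11.49 and 11.48 log2 in induced and control A3 cells. Induced and control A1 cells gave 10.85 and 10.98 log2, and induced and control A4 cells 10.86 and 10.90 log2. The difference was 0.59 ± 0.098 log2, a 1.505-fold higher signal in A3 (1.29 to 1.76), with an adjusted p of 0.01002. The dimmer 1447899_x_at also had both A3 arrays on top (7.70 and 7.80 log2, against 7.23 to 7.43), by 0.38 ± 0.11 log2, and did not pass the test (adjusted p 0.0677).

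Cdh1 and Tjp1 did not pass the test between clones, and their difference from the claudins was not tested. Cdh1 (1448261_at, chromosome 8) read 10.996 log2 in induced and 11.33 in control A3 cells, against 11.08 and 10.86 in induced and control A1 cells and 10.96 and 10.85 in induced and control A4 cells. The control A3 array was the highest of the 6, while the induced one lay between the 2 A1 arrays. The difference of 0.23 log2 had an interval of -0.08 to 0.53 log2 and an adjusted p of 0.348. Tjp1 (1417749_a_at, chromosome 7) read 9.36 and 9.73 log2 in induced and control A3 cells, 9.76 and 9.70 in induced and control A1 cells, and 9.67 and 9.62 in induced and control A4 cells. Here the induced A3 array was the lowest of the 6, and the difference of -0.14 log2 had an interval of -0.42 to 0.14 log2 with an adjusted p of 0.525. For both genes the direction rested on a single A3 array: without the control A3 array Cdh1 stood at -0.03 log2, and without the induced A3 array Tjp1 stood at 0.07 log2.

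**Figure D2:**
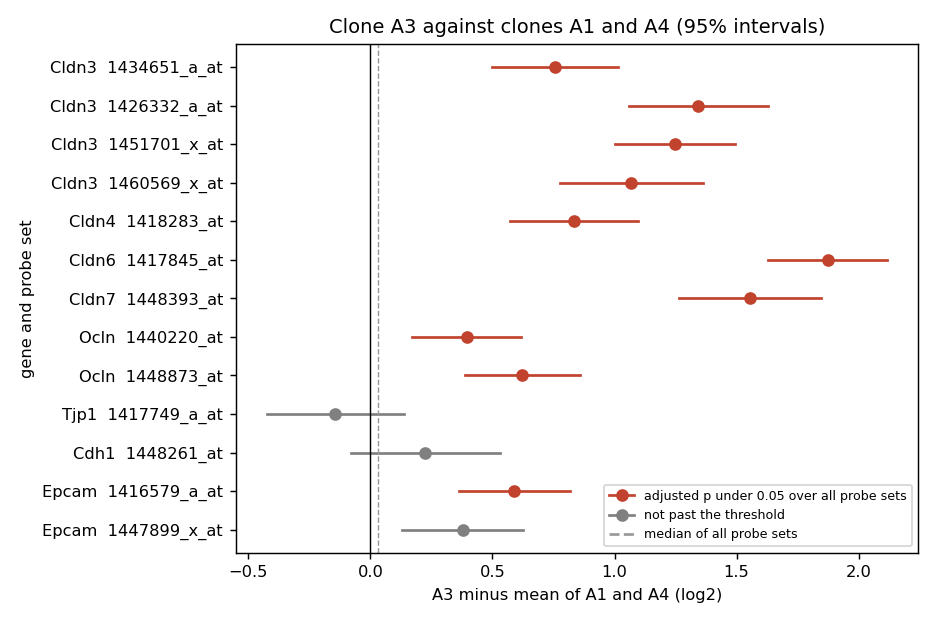
Difference between A3 and the mean of A1 and A4 (log2, horizontal axis) for each probe set (rows), as points with 95% intervals from limma over all probe sets, red where the adjusted p is under 0.05. The 7 claudin probe sets lie between 0.76 and 1.87 log2 and the intervals of Tjp1 and Cdh1 include 0, with the median of all probe sets (dashed) at 0.03 log2.

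Across the members, limma's F test between the 3 clones called 9 of the 13 probe sets, with a background of 5.54% of all probe sets, among them all 7 of the claudins, 1 of Ocln and 1 of Epcam. In the contrast of A3 with A1 and A4, 10 of 13 were called higher (background 3.89%) and 0 lower (background 5.68%; 0 of 13 also at an unadjusted p under 0.05). That contrast was set up with A3 already known to differ from the other clones, and the 8 genes were also chosen with earlier results known. The median difference was 0.76 log2 over the 13 probe sets, against 0.03 log2 over all 45037. With 1 probe set a gene it was 0.67 log2 over the 8 genes, against 0.04 log2 over 18193. Between A1 and A4 the 13 differences ran from -0.17 to 0.22 log2, and limma called 0 of 13 (background 0.0178%, 0 of 13 also at an unadjusted p under 0.05).

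The contrast rests on 2 arrays of 1 clone. Without the induced A3 array 5 of 13 probe sets stayed past the threshold, those of Cldn6 and Cldn7 and 3 of Cldn3. Without both the control A4 and the induced A1 array, in a fit chosen after seeing the data with clone as its only term, 6 of 13 did, the same 5 and Cldn4, with differences of 1.80 log2 for Cldn6 and 1.44 for Cldn7, while the F test called 0.

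After 24 h without tetracycline no member probe set passed the test of induction in limma, where 0% of all probe sets did, and 0 of 13 had an unadjusted p under 0.05. The mean differences ran from -0.14 log2 for Cldn3 (1434651_a_at) to 0.22 log2 for Ocln (1448873_at), and the median was 0.02 log2 over the 13, against 0.00 log2 over all probe sets. The methods' t-test with the same adjustment and limma with the clone as a block likewise called 0. Clone differences widened the intervals: for Cldn6, induced cells averaged 7.93 ± 1.10 log2 and control cells 7.85 ± 1.07 log2 (SD, n = 3 each), a difference of 0.09 log2 with an interval of -1.43 to 1.60 log2.

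With the clone as a block, each clone's induced array is set against its own control array and the intervals narrow. For Cldn6 the interval was then -0.15 to 0.32 log2, and over all 13 probe sets the bounds lay between -0.38 and 0.45 log2. These intervals are not adjusted for the number of probe sets tested. Changes inside a probe set's own interval were not excluded with 6 arrays, and the bounds are not a limit of detection. Only 1 probe set moved in the same direction in the 3 clones by 0.09 log2 or more, namely Ocln 1448873_at, which was higher in induced cells by 0.27 log2 in A3, 0.30 in A1 and 0.10 in A4. Its unadjusted p was 0.0479 with the block and 0.371 without it, and it did not pass after adjustment. The other Ocln probe set changed by 0.03, 0.05 and -0.03 log2 in A3, A1 and A4.

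Clone by clone, the changes of Cldn7 were 0.13 log2 in A3, -0.31 in A1 and 0.16 in A4, and those of Cldn4 were 0.20, 0.12 and -0.17. The 4 Cldn3 probe sets did not share a direction within any of the 3 clones, and A4 gave values between -0.08 and 0.46 log2. Cdh1 changed by -0.33 log2 in A3, 0.22 in A1 and 0.12 in A4, and Tjp1 by -0.36, 0.06 and 0.05. These changes are each the difference of 2 arrays and have no replicate within a clone. For A1 and A4 the pairing of the arrays rests on the sample labels alone.

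**Figure D3:**
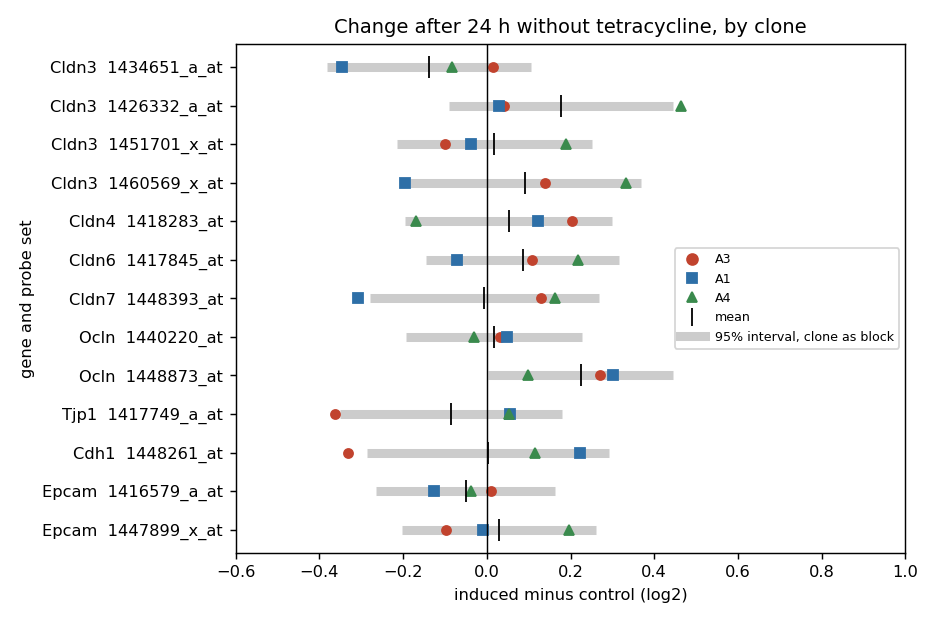
Induced minus control signal (log2, horizontal axis) of each probe set (rows) in A3 (red circles), A1 (blue squares) and A4 (green triangles), with the mean as a black tick and the 95% interval of the fit with clone as a block in grey. The clones scatter on both sides of 0 between -0.36 and 0.46 log2, and only the interval of Ocln 1448873_at leaves out 0.

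Position along the chromosome was read next, since 2 pairs of claudins are neighbours. In the RefSeq order of protein-coding genes Cldn4 and Cldn3 are adjacent on chromosome 5, with 5 protein-coding genes between Eif4h and Cldn4. Beside the pair, Mettl27 was higher in A3 by 0.43 log2 (adjusted p 0.0319), whereas Abhd11, on the other side, gave -0.30 log2 (adjusted p 0.0998) and Stx1a, a syntaxin, gave -0.06 log2 (adjusted p 0.807). Cldn6 is next to Cldn9 on chromosome 17, and Cldn9 was higher in A3 by 0.98 log2 (adjusted p 0.00568), while Tnfrsf12a on the other side of Cldn6 gave 0.02 log2 (adjusted p 0.949). Ocln lies beside Marveld2 (tricellulin), whose signal was higher in A3 by 0.67 log2 (adjusted p 0.00628) but below every array median on all 6 arrays, and Cdh1 beside Cdh3 (P-cadherin), higher in A3 by 0.54 log2 (adjusted p 0.0295). In all, 4 of the 23 measured genes within 2 places of a member were called higher in A3 (5.13% of all genes were) and 0 lower (6.32% were). Of the 4, Cldn9, Marveld2 and Cdh3 are themselves junction genes of the lists read below. The other 19 ranged from -0.30 to 0.39 log2. Those 19 include all 4 measured neighbours of Cldn7 (-0.16 to 0.35 log2). These neighbours were looked up after the members' values were seen.

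Lists of related genes were read with 1 probe set a gene, on which 5.13% of all 18193 genes were called higher and 6.32% lower in A3. These lists, too, were drawn up with earlier results of these data known. Of the other claudins, 16 of 18 listed genes were measured. Cldn9, a close paralogue of Cldn6, was the 1 called in A3, with 6.00 and 5.90 log2 in induced and control A3 cells against 4.45 to 5.19 log2 in the other clones. These A1 and A4 values lay near or below the array medians, and 1 of the 2 Cldn9 probe sets was called. Cldn13 and Cldn10 were the next by their p between clones, at 0.39 and 0.27 log2, and did not pass (adjusted p 0.138 and 0.165). The median of the 16 genes was 0.08 log2, against 0.04 log2 over all genes, and 10 of them read below every array median on all 6 arrays. On induction the smallest p was that of Cldn12, at 0.15 log2 (unadjusted p 0.198).

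Among 23 measured tight junction plaque, polarity and other membrane proteins, 6 were called higher in A3 and 1 lower, with a median of 0.15 log2. Marveld3, a relative of occludin, was higher by 1.17 ± 0.11 log2, with 5.63 and 5.21 log2 in induced and control A3 cells against 4.01 to 4.42 log2, below the array medians, elsewhere. It was called on 1 of its 3 probe sets. The scaffold Tjp3 (ZO-3) was higher by 0.88 ± 0.11 log2, from 7.11 and 7.03 log2 in induced and control A3 cells against 6.00 to 6.46 log2. Marveld2, which seals the corners where cells meet, was the next. Beyond the naming rule and chosen after their values were seen, the others called higher were Crb3 (0.70 log2), a polarity protein, Lsr (0.55 log2), the angulin that recruits tricellulin, and Cgn (cingulin, 0.46 log2), and the one called lower was Llgl2 (-0.39 log2), a basolateral polarity protein. Tjp1 thus had a paralogue that was called while it was not. The difference between Tjp1 and Tjp3 was not tested.

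Adherens junction genes were mixed: of 13 measured, 2 were called higher in A3 and 1 lower, a share of lower genes near the 6.32% of all genes, with a median of -0.04 log2. Cdh2 (N-cadherin) was higher by 1.25 ± 0.17 log2, at 6.79 and 6.78 log2 in induced and control A3 cells, against 6.05 and 5.45 in induced and control A1 cells and 5.17 and 5.48 in induced and control A4 cells. Cdh3 was the second, called on 1 of its 2 probe sets. Nectin1, an immunoglobulin-like adhesion molecule, was lower by 0.47 log2 (log2 difference -0.47, adjusted p 0.0353) on 1 of its 3 probe sets, another of which gave 0.07 log2. Cdh11, a mesenchymal cadherin, had the smallest p on induction in this list (unadjusted p 0.0595), near the lower end of the signal range. Of the 12 desmosome and gap junction genes measured, 2 were higher and 2 lower in A3 (median 0.04 log2). Gjb5, a connexin, was higher by 0.63 log2 and Gjc1, another connexin named after its value was seen, by 0.39 log2, whereas Dsg2, a desmosomal cadherin, was at -0.61 log2 and Perp, a desmosome protein, at -0.55 log2, all with adjusted p between 0.00699 and 0.0456. For Dsg2, 1 of its 6 probe sets was called. Over these 4 lists 15 genes were called in A3, and 4 without the induced A3 array.

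Genes that promote the epithelial state and partners of Epcam were mostly higher in A3: 9 of 15 measured were called higher and 1 lower, against 5.13% and 6.32% of all genes, with a median of 0.50 log2. Esrp1, a splicing factor of epithelial cells, read 9.05 and 9.18 log2 in induced and control A3 cells, against 7.97 and 7.78 in induced and control A1 cells and 7.50 and 7.45 in induced and control A4 cells, a difference of 1.44 ± 0.11 log2 with an adjusted p of 0.000502. Ovol2, a transcription factor that opposes Zeb1, was higher by 0.96 ± 0.13 log2 and Esrp2 by 0.71 ± 0.096 log2, the latter called on 1 of its 2 probe sets. The A1 and A4 values of Ovol2, 4.34 to 4.92 log2, lay below the array medians. The 1 lower gene was Spint1, a protease inhibitor (-0.46 log2, adjusted p 0.0373), named after its value was seen.

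Of 13 measured repressors of the epithelial state and mesenchymal genes, limma called 5 lower in A3, against 6.32% of all genes, and 0 higher, also at an unadjusted p under 0.05. Cdh2 (N-cadherin), read above among the adherens junction genes, was not in this list and was higher in A3 by 1.25 log2. The intermediate filament Vim read 10.88 and 10.83 log2 in induced and control A3 cells, against 11.57 to 11.59 log2 in the other clones, and all 3 of its probe sets were called lower. Zeb1 read 6.88 and 6.84 log2 in induced and control A3 cells, against 7.43 to 7.61 log2, a difference of -0.65 ± 0.10 log2 (adjusted p 0.00848), which 1 of its 4 probe sets passed. Twist1 stood at -1.01 ± 0.12 log2 (adjusted p 0.00305). Its values of 4.31 and 4.59 log2 in induced and control A3 cells lay below the array medians, against 5.16 to 5.68 log2 elsewhere. Snai2 and Snai1, named after their values were seen, were at -0.52 and -0.40 log2, with adjusted p of 0.0197 and 0.0494. The other 8 genes were not called, among them Zeb2 at 0.18 log2, a relative of Zeb1, and the list's median was -0.11 log2.

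**Figure D4:**
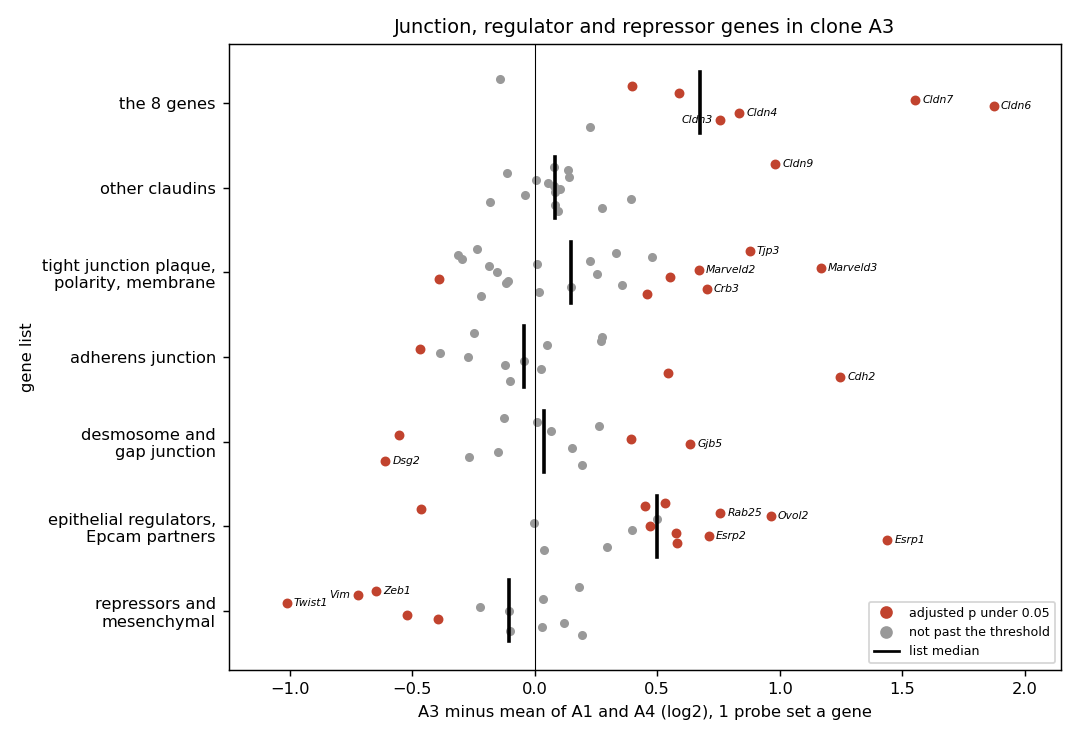
Difference between A3 and the mean of A1 and A4 (log2, horizontal axis) for the genes of 7 lists (rows), 1 probe set a gene, red where the adjusted p is under 0.05, with a black bar at each list's median and the called genes beyond 0.6 log2 named. The medians are 0.67 log2 for the 8 genes, 0.50 for epithelial regulators and -0.11 for repressors, and the other junction lists lie between -0.04 and 0.15 log2.

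Markers of other cell types moved with the clones too. The 10 primitive endoderm markers, genes of the extra-embryonic layer that forms a basement membrane, had a mean of 5.22 and 5.26 log2 on the A3 arrays and 5.85 to 6.36 on the others, and 7 of 10 were called lower in A3, against 6.32% of all genes. The A3 means lay near the array medians, so whether all 10 were above background in A3 is not given. Col4a1, a basement membrane collagen, stood at -1.49 log2, Cubn, an endocytic receptor, at -2.35 log2 and Dab2, its adaptor, at -1.12 log2. Cubn read 3.38 and 4.42 log2 in induced and control A3 cells, below the array medians, against 5.75 to 6.79 log2 elsewhere. Dab2 was lower on 3 of its 4 probe sets and called on 2. Neither the 10 markers nor the members were called between A1 and A4, where 3 of 18193 genes were. At an unadjusted p under 0.05 in limma, 8 of the 10 markers differed there, against 798 of all 18193 genes and 0 of the 8 members. A1 minus A4 ran from -0.04 to 0.98 log2 over the 10 markers. Primed epiblast markers averaged 7.37 and 7.56 log2 in A3 and 6.79 to 6.95 in the other clones. Of the 9 measured, 3 were higher (5.13% of all genes were), namely Otx2 (2.88 log2), Zic2 (1.22 log2) and Lefty2 (0.74 log2). Lower was 1 (6.32% of all genes were), Sox3 (-0.49 log2).

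Trophectoderm markers were mixed, with 2 of 10 called higher in A3 and 1 lower, against 5.13% and 6.32% of all genes. Tfap2c and Ascl2 were higher by 1.10 and 0.84 log2, Ascl2 called on 1 of its 3 probe sets. The keratin Krt8 stood at -1.05 log2, and the list means were 6.01 and 6.02 log2 in A3 against 5.75 to 5.98 in the other clones. ES cell markers averaged 11.94 and 12.04 log2 in A3 and 12.06 to 12.18 in the other clones. Of the 10, 1 was called, the pluripotency factor Klf4 at -0.51 log2, a share near the 6.32% of all genes called lower. Esrrb had both A3 arrays below the others, at -0.45 log2, and did not pass (adjusted p 0.0504), with 2 of its 3 probe sets lower. At an unadjusted p under 0.05 in limma 2 of the 10 were lower in A3 and 0 higher, against 2397 and 2613 of all 18193 genes. Pou5f1, the defining factor of the pluripotent state, read 12.83 to 12.93 log2 on all 6 arrays. Fibroblast markers averaged 4.52 and 4.61 log2 in A3 and 4.42 to 4.53 in the other clones, under the array medians, with 0 of 10 called by limma and 1 at an unadjusted p under 0.05. These counts use 1 probe set a gene, and the other probe set of Pdgfrb was called higher in A3. The part that any of these cell types has in the claudin differences was not tested.

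Finally, the genes closest in pattern to each member were found among 9737 other genes (9738 for Ocln) with a mean of at least 6 log2, by the root mean square difference of centred log2 signals over the 6 arrays. Those nearest to Cldn6 were Glrx, a glutaredoxin, and Sgce, a sarcoglycan, both at 0.09 log2. Cldn7 was followed most closely by Lad1 (ladinin, 0.06 log2), an anchoring filament protein of epithelia, and by Hspb8 (0.09 log2), a small heat shock protein. Slc1a4, an amino acid transporter, and Stard10, a lipid transfer protein, came nearest to Cldn3 (0.05 and 0.07 log2), and Hbp1 and Tmtc4 to Cldn4 (0.05 and 0.07 log2). Apod and Slc30a2 were nearest to Epcam (both 0.03 log2), Tspan4 and Vps36 to Ocln (both 0.02 log2), Vbp1 and Mynn to Cdh1 (0.03 and 0.04 log2), and 4932438A13Rik and Akap13 to Tjp1 (both 0.02 log2). Small distances come easily to genes that vary little, such as Tjp1. Among the members themselves, Cldn7 ranked 12th of 9737 genes in nearness to Cldn6 (0.17 log2), Cldn6 13th in nearness to Cldn7, and Epcam 26th in nearness to Cldn3 (0.11 log2), whereas Tjp1 ranked 6748th in nearness to Cldn6. Each gene was read by its brightest probe set. For Cldn3 that was 1434651_a_at, whose A3 difference was the smallest of its probe sets, and nearness on the others was not computed.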

How the data were processed

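The 6 arrays are Affymetrix whole-genome mouse arrays of total RNA from cultured ES cell clones. The deposited values are log2 signals, which the authors computed by RMA in the affy package of Bioconductor (version not given in the sources). They were used as they are. RMA adjusts background and sets all arrays to 1 distribution, so a global shift would not be seen. Of 45101 probe sets, 64 array controls were dropped. The remaining 45037 have 1 symbol (34945), several (932) or none (9160), and only those with 1 symbol name a gene. Symbols were matched to RefSeq (GRCm38.p6), whose gene coordinates were not used beyond order and start windows.

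Tests were two-sided and used the moderated statistics of limma 3.58.1 (lmFit, eBayes; R 4.3.3). The p-values of all 45037 probe sets were adjusted together by Benjamini-Hochberg, and 0.05 was the threshold. Induction was fitted with condition as the only term, as in the study's methods, which state a t-test. Clones were compared in a fit of condition and clone. By the sample labels, replicate numbers 1, 2 and 3 are clones A1, A3 and A4, which pairs the arrays. With each condition's mean subtracted, the control and induced arrays of A3 had a correlation of 0.670. For A1 and A4 it was 0.313 and 0.290. Crossed pairs gave higher values, 0.348 for control A1 with induced A4 and 0.369 for control A4 with induced A1. The values thus bear out the pair of A3 only, and the pairing of A1 and A4 rests on the labels. Clones were handled as separate biological samples, and p-values between clones measure only the spread between the 2 arrays of a clone and across conditions. The number of arrays limits the precision. Scripts were tested on simulated data.

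The 8 genes, the gene lists and the contrast of A3 were chosen with earlier results of these data known. Genes were named by a rule: all probe sets of the 8 genes, in each list the 3 genes with the smallest p between clones and the 1 with the smallest p on induction, by their brightest probe set, and for each member the 2 genes nearest in pattern. Genes named outside it were chosen after their values were seen. Some listed genes are not reported here. Alternatives were the replicate block, the methods' t-test, clone as the only term, array medians subtracted, quantile normalization again, cyclic loess, a mean of at least 5 log2, eBayes with trend and robust options, 1 probe set a gene, and leaving out each array or clone. Plots used Python 3.11.15 and matplotlib 3.10.9.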

Additional observations from a re-analysis of the deposited data

Results flagged for a closer look

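Cdh1 went in opposite directions on induction in 2 clones. Its signal was lower in induced than in control A3 cells (-0.33 log2) and higher in induced than in control A1 cells (0.22 log2), a difference between the clones of -0.56 log2. Each change is the difference of 2 arrays, so the difference was not tested.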

How the results depend on the processing

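Paired analysis by clone (replicate block) called 0 of the 8 members on induction, as did every other alternative, and the block changed no call. In A3 against A1 and A4, 6 of 8 members (10 of 13 probe sets) were called, with 5 to 6 (9 to 11) under the other normalizations, filters and fits. Leaving out single arrays or clones gave 2 to 5 members, 5 to 9 probe sets and 4 to 12 other junction genes (15 with all arrays), in each case lowest without the induced A3 array. The F test between clones called 5 members and 9 probe sets, 6 members when tested on 1 probe set a gene. Leaving out arrays or clones gave 0 to 5 and 0 to 9, where 0 is the fit without clone A3. Without both control A4 and induced A1, with clone as the only term, an alternative chosen after seeing the data, 0 members and 0 probe sets were called between clones, and 3 members, 6 probe sets and 3 other junction genes in A3. That fit has 1 residual degree of freedom.

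Differences with A3 reversed only for Cdh1 (-0.025 to 0.48 log2 over the fits that left out arrays) and Tjp1 (-0.35 to 0.065). Induced minus control, none of them called, reversed with array medians subtracted for Cldn7 (0.019), with quantile normalization again for Cdh1 (-0.0068) and Epcam 1447899_x_at (-0.00042), and with cyclic loess for Cdh1 (-0.012). Leaving out an array there also removes a clone from 1 condition and mixes clone with induction. The ranges were -0.11 to 0.17 log2 for Cdh1, -0.24 to 0.66, -0.43 to 0.076, -0.37 to 0.46 and -0.28 to 0.44 for Cldn3 1426332_a_at, 1434651_a_at, 1451701_x_at and 1460569_x_at, -0.26 to 0.29 for Cldn4, -0.55 to 0.70 for Cldn6, -0.56 to 0.48 for Cldn7, -0.26 to 0.13 and -0.10 to 0.19 for Epcam 1416579_a_at and 1447899_x_at, -0.12 to 0.14 for Ocln 1440220_at and -0.17 to 0.054 for Tjp1.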
